A study of Drosophila melanogaster with 65 samples.

Results

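The digestive enzyme genes described here are 46 of the 16369 genes in the long RNA tables of a study of Drosophila melanogaster ovaries and ovarian cells. They were taken by symbol alone, without any measured value. They comprise 16 Jonah proteases (Jon and a digit), 11 trypsins (symbols that end in Try), 8 maltases of the Mal-A group and 2 of the Mal-B group, 2 amylases (Amy-d and Amy-p), 6 lysozymes (Lys and a capital letter) and Bace. Jonah proteins and trypsins are secreted serine proteases that cut dietary protein. Maltases and amylases break down sugars and starch, and the fly's lysozymes of this family are made in the gut, where they digest bacterial cell walls. Bace encodes an aspartic protease of the gut. Most of these genes are known for high expression in cells of the midgut and are not known as genes of the ovary. Mal-A5 and Mal-B2 were read in every ovary and OSS library here, so not every member marks gut RNA.

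Long RNA was sequenced from ovaries, with 1 mutant (Mut) and 1 wild-type (WT) library in each of 6 lines. They are called FlamBG and FlamKG, FPSE1, FPSE2A and FPSE2B, and FITS in the labels. The series text speaks of new deletions in the promoter region of flamenco, a piRNA cluster, and the labels do not say which lines carry them. What each line carries, the age of the flies, and the number of flies per library are not given in the sources used here. OSS cells, a line of somatic ovarian cells, served as the background and gave 12 libraries, with 3 each after siRNA against Piwi, TJ or Ci, and 3 controls with siRNA against GFP. The labels do not say whether the OSS replicates came from separate cultures, so their spread may be technical. With 1 library of each genotype in a line, a difference within a line has no replicate check.

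The ovary libraries held 9676965 to 81892058 unique sense reads in genes, and the OSS libraries 9075806 to 54359738. Levels are given as CPM, counts scaled to library size by TMM over all 24 libraries. Eggshell genes were low in some libraries. Vm26Aa, which encodes a protein of the eggshell's inner layer, had 5.83 CPM in FlamBG Mut and 3.65 CPM in FlamKG Mut, against 279 and 4063 CPM in the WT libraries of those lines. In the other 8 ovary libraries it had 463 to 2211 CPM. Reads antisense to genes made up 12.4% of reads in the siPiwi 2 library and 9.27% in siTj 2, against 4.07% to 5.08% in the other OSS libraries.

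Most of the genes lie in tight clusters of the genome (Release 6). The 11 trypsins span 20.7 kb at chr2R:11336840-11357537, the 8 Mal-A maltases 24.3 kb at chr2R:8449664-8473961, and the 6 lysozymes 33.5 kb at chr3L:1194739-1228238. Jonah genes form groups of 3 at chr2L:4949941-4955144, 4 at chr3L:6039155-6054443 and 3 at chr3R:29922216-29926189. Near-identical copies limit what unique reads can show. Fewer than 50% of sense reads mapped uniquely for 14 of the 46 genes, among them Jon99Cii with 3.22%, deltaTry with 0.456% and LysS with 2.89%. Amy-d had 15.5% and Amy-p 15.7%. gammaTry had no unique read in any library, although 237931 sense reads over all positions were placed on it in ovaries. Its locus is covered in full by CG30031 on the same strand. Levels of these copies are therefore lower bounds that depend on the few bases in which the copies differ.

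Overlap with other genes matters for Bace and for the lysozymes. Bace (chr2L:8494893-8496307) lies inside the locus of Dh31, a gut hormone gene on the same strand. Of 440671 unique reads counted over the Dh31 locus in ovaries, 439413 were also the count of Bace, and only 582 fell in annotated exon parts of Dh31. The FlamBG WT library had 437 reads on each of the 2 genes. LysB, LysE and LysS lie inside mwh on the same strand, and mwh had 2513 reads in exon parts among 99898 over its locus. The whole-locus counts of Dh31 and mwh in these libraries thus held reads placed on the enzymes.

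Digestive enzyme RNA varied widely among ovary libraries, and the Mut library was higher in 5 of the 6 lines. The summed level of the 46 genes was 63887 CPM in FlamKG Mut, against 311 CPM in FlamKG WT, a ratio of 205. It was 12276 CPM in FlamBG Mut against 789.6 CPM in FlamBG WT, a ratio of 15.5. In FPSE2A it was 4472 CPM in Mut and 811 CPM in WT, in FPSE1 8363 CPM in Mut and 1863 CPM in WT, and in FPSE2B 1867 CPM in Mut and 926 CPM in WT, with ratios of 5.51, 4.49 and 2.02. FITS ran the other way, with 309.7 CPM in Mut and 3304 CPM in WT, a ratio of 0.0937. As shares of all unique sense reads, the genes took 4.85% in FlamKG Mut and 1.37% in FlamBG Mut, and 0.283% or less in every WT library. OSS cells had summed levels of 138 to 297 CPM.

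**Figure D1:**
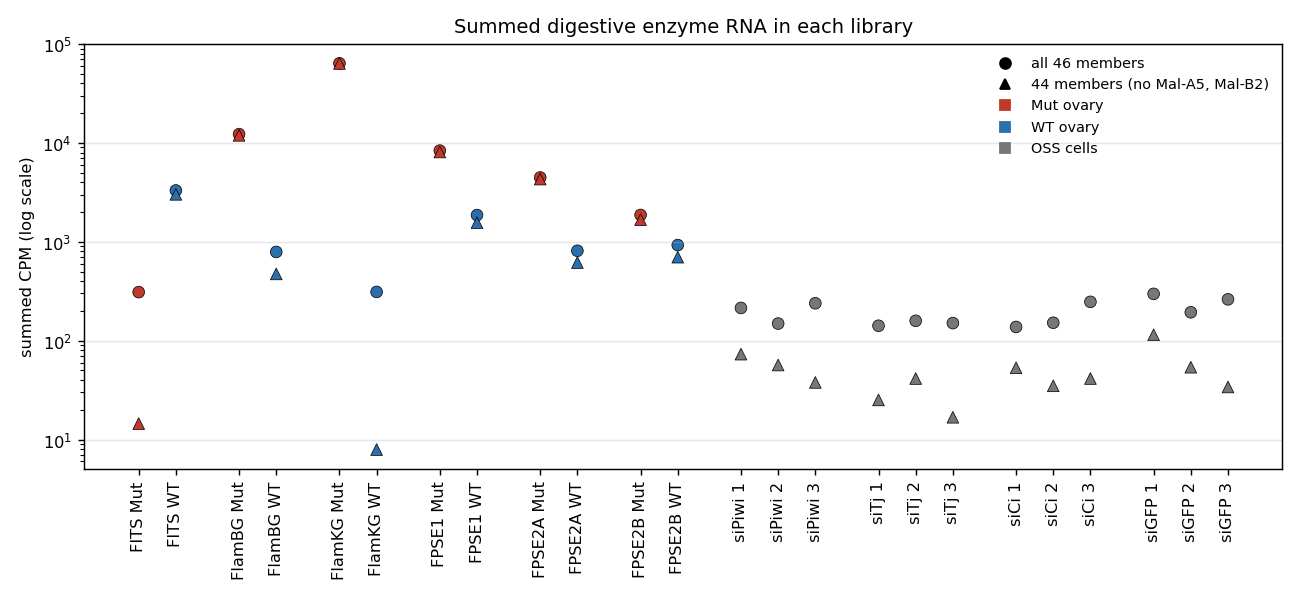
Summed CPM of the digestive enzyme genes (log scale) in each ovary library by line and in each OSS library; circles show all 46 genes and triangles the 44 without Mal-A5 and Mal-B2. FlamKG Mut stands highest at 63887 CPM, and only in FITS does the Mut point lie below its WT point.

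The sum has a floor, because Mal-A5 and Mal-B2 were read in every library. Mal-A5 had 124 to 257 CPM in Mut ovaries, 162 to 278 CPM in WT ovaries and 75.6 to 195 CPM in OSS cells. Mal-B2 had 38.5 to 127 CPM in Mut ovaries, 24.9 to 70.1 CPM in WT ovaries and 5.13 to 32.8 CPM in OSS cells. Without these genes, the sum was 14.5 CPM in FITS Mut against 3020 CPM in FITS WT, and 63649 CPM in FlamKG Mut against 7.92 CPM in FlamKG WT. FITS Mut and FlamKG WT were then below every OSS library, which had 16.8 to 115 CPM. That order depends on Mal-A4, the leading gene in each OSS library, with 11.6% to 94.3% of reads of the 44 genes. The Jonah sum was 6.10 CPM in FITS Mut and 2.06 CPM in FlamKG WT, against 0.122 to 12.6 CPM in OSS libraries. This sum of 44 genes was chosen after the values were seen.

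In 2 of the 12 ovary libraries, FITS Mut and FlamKG WT, only Mal-A5 and Mal-B2 reached 10 CPM. The other WT libraries had 16 to 21 of the 46 genes at 10 CPM or more. FPSE2B Mut had 23 genes at that level, FPSE1 Mut 28, FPSE2A Mut 33, and FlamBG Mut and FlamKG Mut 41 each. In bulk RNA, more gut cells in a sample and more enzyme RNA per cell cannot be told apart.

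On unique reads, Jonah proteases had the largest family sum in FlamBG Mut, FPSE1 Mut, FPSE2A Mut, FPSE2B Mut and FITS WT. Trypsins came first by a small margin in FlamKG Mut and FPSE1 WT. Reads shared between near-identical copies are left out of these sums. The Jonah sum had a median of 2659 CPM in Mut ovaries (6.10 to 18623 CPM) and 203 CPM in WT ovaries (2.06 to 1471 CPM), so the ranges overlapped. By unique reads, Jon65Aiv was the highest Jonah gene per length, with a mean of 753 CPM per kb over the ovary libraries. It had 4649 CPM in FlamKG Mut, 1241 in FPSE1 Mut and 1115 in FlamBG Mut. Its level was 739 CPM in FPSE2A Mut, 197 in FPSE2B Mut and 1.61 in FITS Mut. In WT it had 473 CPM in FITS, 216 in FPSE1, 91.4 in FlamBG, 77.3 in FPSE2B, 68.6 in FPSE2A and 0.598 in FlamKG. Its neighbour Jon65Aiii was also highest in those libraries, with 3191 CPM in FlamKG Mut and 312 CPM in FITS WT.

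Other Jonah genes ranked the libraries differently. Jon25Bi and Jon25Bii, side by side on 2L, were highest in FlamBG Mut, with 543 and 839 CPM, against 273 and 167 CPM in FlamKG Mut. Jon74E had 438 CPM in FlamBG Mut and 358 CPM in FPSE1 Mut, but 2.90 CPM in FlamKG Mut, where the family sum was greatest. Jon99Ciii went the other way, with 3752 CPM in FlamKG Mut and 159 CPM in FlamBG Mut. Relative to Jon65Aiv in the same library, Jon25Bii stood at 75.2% in FlamBG Mut and 3.59% in FlamKG Mut, and Jon99Ciii at 14.2% and 80.7%. Jon99Ci had 1067 CPM in FlamKG Mut and 665 CPM in FlamBG Mut, and Jon25Biii 2546 and 1255 CPM. The ratio of Jonah genes to each other was thus not fixed across libraries.

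**Figure D2:**
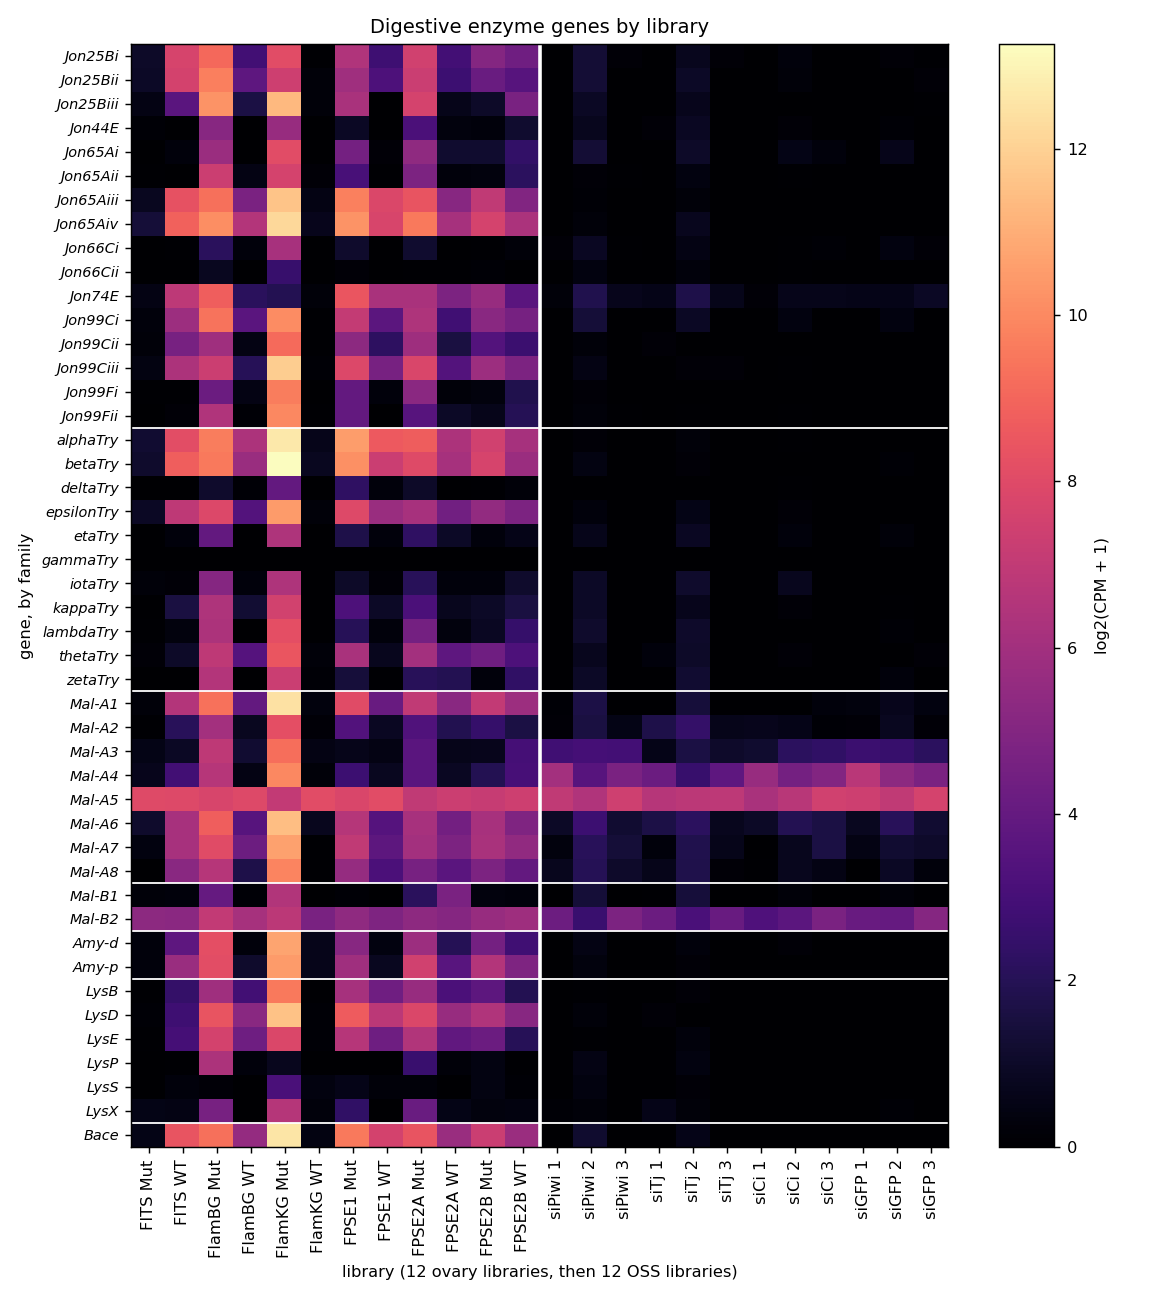
Level of each digestive enzyme gene as log2(CPM + 1), with genes as rows by family and libraries as columns, ovaries left and OSS cells right of the white line. Mal-A5 and Mal-B2 are bright in every library, while FITS Mut and FlamKG WT are otherwise dark, as are OSS cells apart from Mal-A4.

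Among the trypsins, alphaTry and betaTry carried most reads. betaTry had 9795 CPM in FlamKG Mut, the highest value of any member in any library, followed by 1152.5 CPM in FPSE1 Mut and 741 CPM in FlamBG Mut. The lowest, median and highest levels of betaTry were 1.19, 499 and 9795 CPM in Mut ovaries and 0.739, 62.2 and 443 CPM in WT ovaries. For alphaTry they were 1.33, 616 and 6416 CPM in Mut and 0.545, 80.6 and 391 CPM in WT. Per length over the ovary libraries, betaTry averaged 1006 and alphaTry 988 CPM per kb by unique reads, the highest of the 46 genes. That order depends on counting unique reads. Over all positions in ovaries, Jon99Cii had 1220760 sense reads and Jon99Ciii 1410068, against 847734 for betaTry and 708413 for alphaTry. Only 3.22% of the Jon99Cii reads and 17.0% of the Jon99Ciii reads were unique, so their own levels are uncertain. The medians, which FlamKG Mut does not move, put alphaTry first at 266 CPM per kb, with betaTry at 168 CPM per kb below Jon65Aiv and Jon65Aiii. epsilonTry had a median of 154 CPM in Mut and 23.5 CPM in WT, and thetaTry 69.6 and 4.73 CPM.

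The lesser trypsins of the same cluster were almost unread in WT ovaries. kappaTry had up to 183 CPM in Mut and at most 2.03 CPM in WT, and lambdaTry up to 296 CPM in Mut and at most 4.62 CPM in WT. FITS WT had 443 CPM of betaTry but 0.271 CPM of lambdaTry and no read of zetaTry. Of the 46 genes, 18 stayed under 5 CPM in every WT library, a set defined after the values were seen. FlamKG Mut had 15 of the 18 at 5 CPM or more, FlamBG Mut 13, FPSE2A Mut 10, FPSE1 Mut 6, and FPSE2B Mut and FITS Mut 0. Their sum was 3623 CPM in FlamKG Mut and 830.5 CPM in FlamBG Mut, against 1.02 and 3.88 CPM in the WT libraries of those lines. In FITS WT, whose 26 other genes summed to 3013 CPM, the 18 summed to 6.92 CPM.

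Maltases cleave the sugar chains that amylases leave. Mal-A1 had a median of 198 CPM in Mut ovaries and 26.3 CPM in WT ovaries, and reached 5577 CPM in FlamKG Mut and 92.7 CPM in FITS WT. Mal-A6, Mal-A7 and Mal-A8 had 2866, 1605 and 935 CPM in FlamKG Mut and 435, 268 and 101 CPM in FlamBG Mut, with at most 70.8 CPM in WT. Mal-A4 differed from these by its level in OSS cells. It had 1001 CPM in FlamKG Mut and 0.194 to 7.11 CPM in WT ovaries, against 57.4 ± 43.7 CPM in siGFP cells (SD, n = 3). Mal-B1 was high in another library than its family, with 25.4 CPM in FPSE2A WT against 0.208 CPM or less in the other 5 WT libraries. FlamKG Mut had 89.0 CPM of Mal-B1, and the other Mut libraries 15.3 CPM or less.

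Amylases hydrolyse starch. Amy-p had lowest, median and highest levels of 0.232, 134 and 1412 CPM in Mut ovaries and 0.563, 6.06 and 52.4 CPM in WT ovaries. Amy-d had 0.216, 44.9 and 1694 CPM in Mut and 0.215, 1.78 and 12.8 CPM in WT. The pair was scarce in FPSE1 WT, where it summed to 1.05 CPM beside 573 CPM of Jonah proteases, and stood at 93.6 CPM in FPSE1 Mut beside 3146 CPM. Since the copies share most of their sequence, their ratio to each other is uncertain.

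Lysozymes split into genes seen with the other enzymes and genes seen in few libraries. LysD, the highest, had 3026 CPM in FlamKG Mut, 415 in FPSE1 Mut and 337 in FlamBG Mut, with a median of 283 CPM in Mut and 35.3 CPM in WT. LysB had medians of 54.7 and 5.41 CPM, and LysE 95.5 and 10.3 CPM. FITS WT, the WT library with most digestive enzyme RNA, had only 17.9 CPM of lysozymes, against 152 CPM in FPSE1 WT. LysP, known from the salivary gland, had 79.3 CPM in FlamBG Mut, 5.06 CPM in FPSE2A Mut and 0.711 CPM or less in the other 10 ovary libraries. LysS reached 7.73 CPM in FlamKG Mut and 0.515 CPM or less in the other 11 ovary libraries. LysX had 96.8 CPM in FlamKG Mut, 23.9 in FlamBG Mut and 16.7 in FPSE2A Mut, and at most 0.436 CPM in WT.

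Bace had 6060 CPM in FlamKG Mut, 761 in FPSE1 Mut, 626 in FlamBG Mut, 335 in FPSE2A Mut, 156 in FPSE2B Mut and 0.464 in FITS Mut. In WT it had 339 CPM in FITS, 189 in FPSE1, 53.3 in FPSE2B, 52.7 in FPSE2A, 47.0 in FlamBG and 0.370 in FlamKG. Mut was above WT in 5 of 6 lines.

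The test of Mut against WT over the 6 lines, with the line as a block, called none of these genes. Of the 46, 42 passed the filter on low counts, and Jon66Cii, deltaTry, gammaTry and LysS did not. By the quasi-likelihood test of edgeR with Benjamini-Hochberg adjustment over 11155 genes, 0 of the 42 and 0 genes in all (0%) had an adjusted p under 0.05, and the lowest adjusted p of any gene was 0.436. At an unadjusted p under 0.05 there were 4 of the 42 and 11.1% of all genes. The 4 were Jon44E, Jon65Aii, LysP and LysX, named after their values were seen. DESeq2 called 13 of the 42, against 2.95% of all genes. The 13 were higher in Mut, against 2.44% of all genes called higher and 0.511% called lower. The fitted log2 fold change was positive for 41 of the 42, against 45.0% of all genes tested, with a median of 3.22 against -0.07. Members that were low in WT could pass the filter only through Mut, so the count and median are descriptions.

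Bace averaged 1323 ± 2338 CPM in Mut ovaries and 114 ± 127 CPM in WT ovaries (SD, n = 6 each). Its log2 fold change was 2.50 ± 2.14 (SE), with an adjusted p of 0.509 in edgeR. Each SE of a fold change given here was back-calculated from the F statistic and is approximate. Amy-d had a log2 fold change of 5.41 ± 2.58 (SE), with an adjusted p of 0.436 in edgeR and 0.00224 in DESeq2. Jon25Biii had the largest, 8.15 ± 4.39 (SE), with an adjusted p of 0.437 in edgeR. Mal-A5, the only one below 0, had a log2 fold change of -0.32 ± 0.17 (SE) and was lower in Mut in 5 of 6 lines. With FITS left out, 19 of the 43 members tested, against 4 of 42 with it, had an unadjusted p under 0.05, against 11.3% of all genes in that fit and 11.1% with FITS. None had an adjusted p under 0.05 without FITS. Leaving out FlamBG, FlamKG, FPSE1, FPSE2A or FPSE2B instead gave 0 of 41, 1 of 41, 1 of 42, 0 of 39 and 8 of 41 members at an unadjusted p under 0.05. The shares of all genes in those fits were 4.91%, 5.26%, 9.38%, 7.49% and 9.83%. FITS was the only line whose summed level was lower in Mut.

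Line by line, 40 or 41 of the 42 genes were higher in Mut in FlamBG, FlamKG, FPSE1 and FPSE2A, 25 in FPSE2B and 7 in FITS. Over all genes tested, the median log2 ratio of Mut to WT on CPM + 1 lay between -0.148 and 0.00608 in the 6 lines. A gene is counted here where Mut and WT differed at least 4-fold on CPM + 1, which is a description of 2 libraries and no test. In FlamKG, 39 of the 42 genes were higher in Mut, against 15.1% of all genes tested, and 0 were lower, against 3.51%. FlamBG also had 39 higher, against 14.1%, and 0 lower, against 2.02%. FPSE2A had 27 higher, against 1.24%, and 1 lower, against 0.0269%, the one being Mal-B1. FPSE1 had 26 higher, against 1.34%, and 0 lower, against 0.296%. FPSE2B had 3 higher, against 0.126%, and 3 lower, against 0.197%. FITS had 0 higher, against 1.05%, and 24 lower, against 0.699%. In 23 of the 42 genes Mut was below WT in FITS and above it in the 5 other lines, a pattern found in 4.32% of all genes tested.

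**Figure D3:**
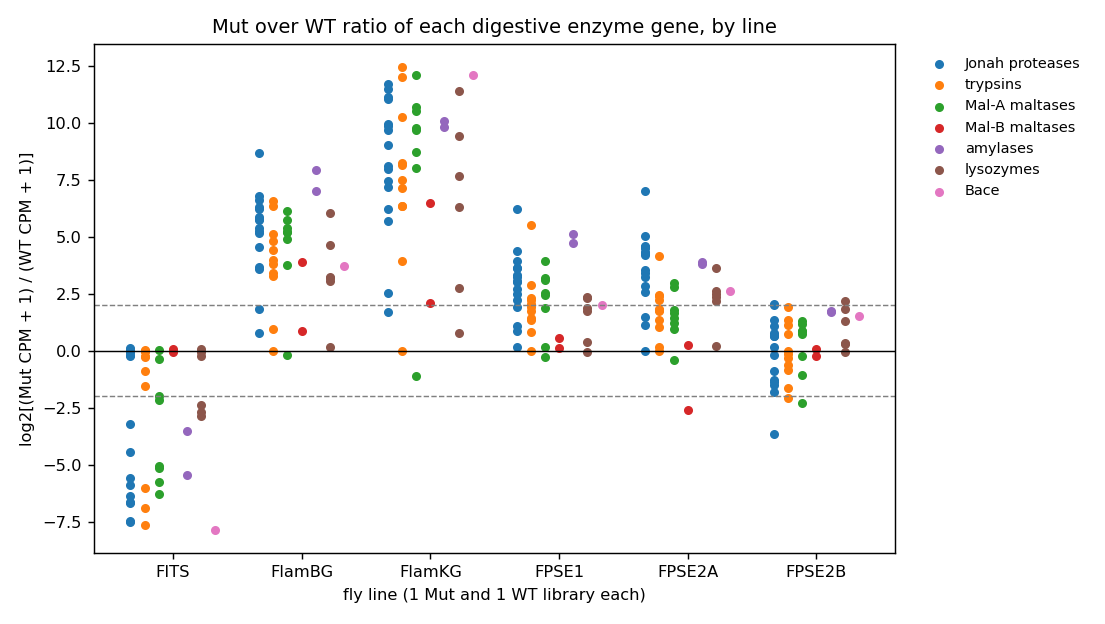
Log2 ratio of Mut to WT on CPM + 1 for each of the 46 genes (points, coloured by family) in each line; dashed lines mark 4-fold and each line has 1 library per genotype. All but a few genes lie above 0 in FlamBG, FlamKG, FPSE1 and FPSE2A, most lie at or below 0 in FITS, and FPSE2B straddles 0.

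In FPSE2B the small overall ratio joined values in both directions. Jon65Aiii, alphaTry, betaTry, LysD and Bace were higher in Mut, with betaTry at 207 CPM in Mut and 54.4 CPM in WT. Jon25Biii was lower in Mut, with 1.02 CPM against 24.3 CPM in WT, and lambdaTry had 0.803 CPM in Mut and 4.62 CPM in WT. The 18 genes that were low in all WT libraries summed to 10.7 CPM in FPSE2B Mut and 30.1 CPM in FPSE2B WT, which was the highest such sum among WT libraries.

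The difference among lines was tested in the same edgeR fit, with genotype allowed for. At an adjusted p under 0.05 the F test over the 5 line terms called 0 of the 42, against 0.0717% of all genes, and at an unadjusted p under 0.05 it had 1 of the 42, LysP, and 29.5% of all genes. DESeq2 called 3 of the 42, LysP, Mal-B1 and Mal-B2, and 38.1% of all genes.

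The mix of enzymes among unique reads also differed between libraries. Among reads of the 44 genes other than Mal-A5 and Mal-B2, Jonah proteases took 29.3% in FlamKG Mut, 50.8% in FlamBG Mut and 50.4% in FPSE2A Mut, against 33.4% in FlamBG WT and 26.5% in FPSE2A WT. Trypsins took 36.5% in FPSE1 Mut and 38.3% in FPSE1 WT, and 18.5% in FlamBG Mut. Mal-A maltases took 20.2% in FlamKG Mut and 18.4% in FPSE2B Mut, against 22.7% in FPSE2B WT, and 6.79% in FPSE1 Mut against 3.15% in FPSE1 WT. The leading gene was betaTry in FlamKG Mut with 15.4%, Jon25Biii in FlamBG Mut with 10.5%, Jon65Aiv in FPSE2A Mut with 17.1% and alphaTry in FPSE1, with 18.1% in Mut and 25.0% in WT. Shares in FITS Mut and FlamKG WT rest on 874 and 450 reads and are not compared.

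**Figure D4:**
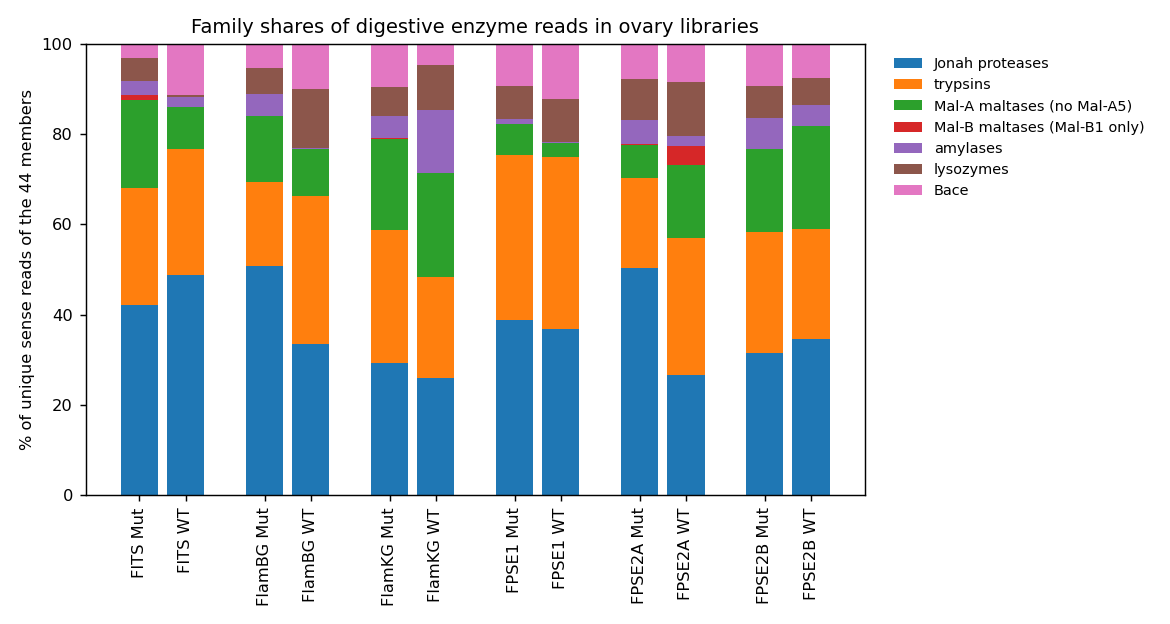
Share of each family among unique sense reads of the 44 genes without Mal-A5 and Mal-B2, in percent, for each ovary library. Jonah proteases make up 50.8% in FlamBG Mut and 29.3% in FlamKG Mut, and lysozymes 0.593% in FITS WT; the bars of FITS Mut and FlamKG WT rest on 874 and 450 reads.

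The WT ovaries were also set against OSS cells. The design compares 6 WT ovary libraries with 3 siGFP libraries, and tissue cannot be told apart from library series. Of the 46 genes, 33 passed the filter, and a gene that is unread in OSS cells could pass only through its ovary reads. The counts that follow describe the genes that passed and are no support for a difference of the families. By edgeR's quasi-likelihood test, 24 of the 33 were higher in WT ovaries at an adjusted p under 0.05, against 23.9% of all 11753 genes, and 1 was lower, against 19.5%. At an unadjusted p under 0.05 there were 29 of the 33, against 51.5%. DESeq2 called 27, against 51.3%, of which 26 were higher, against 28.4%, and 1 was lower, against 23%. Jon65Aiv had a mean of 154 ± 171 CPM in WT ovaries (SD, n = 6) and no read in siGFP cells. Its mean was at least 5020-fold higher in WT ovaries when the 3 siGFP libraries together are given 3 reads. Without FITS WT, which had 473 CPM, the bound was 2952-fold, and from the WT median of 84.3 CPM it was 2742-fold, while FlamKG WT had 0.598 CPM. On the median, alphaTry was at least 2619-fold and LysD at least 1148-fold higher. These bounds cover counting error only.

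The gene that was lower in WT ovaries was Mal-A4, with a log2 fold change of -4.31 ± 0.97 (SE) and an adjusted p of 0.00409 in edgeR. Mal-A4 made up 72.3% to 93.5% of siGFP reads of the 44 genes. Mal-A5 averaged 229 ± 51.2 CPM in WT ovaries (SD, n = 6) and 162 ± 35.2 CPM in siGFP cells (SD, n = 3), with an adjusted p of 0.0827 in edgeR, and Mal-B2 had an adjusted p of 0.0750. Mal-A3 had 0.420 to 6.86 CPM in WT ovaries and 3.55 to 5.39 CPM in siGFP cells, overlapping ranges. Without siGFP replicate 1, 19 of 42 members tested were called in both directions, against 30.5% of all genes in that fit, where 25 of 33 were called with it, against 43.4%. Jon25Biii, Jon74E, kappaTry, Mal-A6, Mal-A7 and Mal-A8 then missed the threshold. Jon25Biii and Jon74E also missed it without siGFP replicate 2, and Jon25Biii, kappaTry, Mal-A6 and Mal-A8 without siGFP replicate 3.

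In OSS cells themselves, reads of the other enzymes were few, and 2 libraries stood apart. siPiwi 2 and siTj 2 had reads of 44 of the 46 genes each, against 8 to 30 in the other 10 OSS libraries. Jonah proteases summed to 12.6 CPM in siPiwi 2 and 9.45 CPM in siTj 2, against 2.19 CPM or less in the others. In these libraries antisense reads came to 28.5% and 23.9% of the unique reads placed on the 46 genes, against 3.03% to 12.3% in the other OSS libraries. For comparison, the Jonah sum was 6.10 CPM in FITS Mut and 2.06 CPM in FlamKG WT. Neither siPiwi 2 nor siTj 2 entered the test against WT ovaries.

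Other digestive enzymes showed the same order of Mut and WT as the 46 genes in every line. A list of 38 other digestive enzymes, with yip7 and CG12374 the highest, had summed levels of 11.5 to 27713 CPM in Mut (median 2253) and 9.31 to 1341 CPM in WT (median 250.02). In FlamKG it summed to 27713 CPM in Mut and 9.31 CPM in WT, in FlamBG to 6107 and 73.8 CPM, and in FITS to 11.5 and 1341 CPM. Of its 33 genes tested, 33 had a positive log2 fold change, against 45.0% of all genes tested, with a median of 3.58. edgeR called 0 of them at an adjusted p under 0.05, against 0% of all genes. Ser12 was the only one under 1 CPM in all ovary libraries. A list of 16 genes of enterocytes and the peritrophic matrix, the lining of the gut lumen, was 15.96-fold higher in Mut in FlamKG and 13.1-fold higher in FlamBG, but its ratio in FITS was 0.801. Myo61F, a myosin of that list, is also read in OSS cells, where the list summed to 221 to 514 CPM. In FITS, Myo61F had 96.6 CPM in Mut and 149 CPM in WT. PGRP-SC2, the other of the list's 2 highest genes, had 0.0663 CPM in FITS Mut and 8.21 CPM in FITS WT. In FPSE2B, PGRP-SC2 had 8.90 CPM in Mut and 23.4 CPM in WT, opposite to the sum of the 46 genes.

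Hormone genes of enteroendocrine cells gave other values when Dh31 was set aside for its overlap with Bace, a step taken after the values were seen. The 7 other genes summed to 1281 CPM in FlamBG Mut against 11.0 CPM in FlamBG WT, and to 384 CPM in FlamKG Mut against 5.23 CPM in FlamKG WT. In FITS they had 14.2 CPM in Mut and 17.6 CPM in WT, and in FPSE2B 21.9 CPM in both. CCHa2, a peptide hormone also made in fat body, had 1253 CPM in FlamBG Mut and 224 CPM in FlamKG Mut, against 9.90 and 3.41 CPM in their WT libraries. The lead in FlamBG rested on that gene. Outside these 2 Mut libraries, the 7 genes summed to at most 24.3 CPM.

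Markers of other tissues were also higher in FlamBG Mut and FlamKG Mut than in their WT libraries. The fat body list of 7 measured genes summed to 14087 CPM in FlamKG Mut and 10131 CPM in FlamBG Mut, against 253 and 109 CPM in their WT libraries. In FITS it had 478 CPM in Mut and 277 CPM in WT, opposite to the enzymes. Nearly all of that was Rfabg, with 473 CPM in FITS Mut and 270 CPM in FITS WT. Lsp2, also of the list, had 1.26 CPM in FITS Mut and 2.02 CPM in FITS WT. The list for the female reproductive tract, with 4 measured genes such as the spermathecal protease Send1, was higher in Mut in 6 of 6 lines, with 75.9 CPM in FITS Mut and 0.271 CPM in FITS WT. Malpighian tubule genes had 1318 CPM in FlamKG Mut and 558 CPM in FlamBG Mut, and 73.2 to 131 CPM in the other 10 ovary libraries. Muscle genes had 7534 CPM in FlamBG Mut and 570 CPM in FlamBG WT, but 5608 CPM in FITS Mut and 5861 CPM in FITS WT. Hemocyte genes had 2493 CPM in FlamKG Mut and 289 CPM in FlamKG WT, and 161 CPM in FPSE1 Mut against 390 CPM in FPSE1 WT.

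Genes of the ovary were lowest in the libraries with most digestive enzyme RNA, FlamKG Mut and FlamBG Mut. The germline list (6 genes, nanos and oskar among them) summed to 435 CPM in FlamKG Mut and 1064 CPM in FlamBG Mut, against 2104 and 4304 CPM in their WT libraries. The list of somatic ovary genes held tj, Fas3, Vm26Aa, Vm32E, Cp36 and flam. It summed to 195 CPM in FlamKG Mut and 160 CPM in FlamBG Mut, against 8788 and 1144 CPM in their WT libraries. Vm26Aa and Cp36 made up most of these WT sums, with 4063 and 4051 CPM in FlamKG WT and 279 and 419 CPM in FlamBG WT. They had 3.65 and 0.262 CPM in FlamKG Mut and 5.83 and 0.121 CPM in FlamBG Mut, so the sums mainly follow these genes. In FPSE2A, where the enzymes were 5.51-fold higher in Mut, the germline list had 1902 CPM in Mut and 1369 CPM in WT, and the somatic list 4195 and 2609 CPM. Genes of neurons and of the eye summed to 33.7 to 103 CPM in Mut and 31.2 to 58.3 CPM in WT. Of 9 measured genes of the male accessory gland, 9 stayed under 1 CPM in every ovary library. edgeR called no gene of any of the 12 lists in Mut against WT, and the part of these tissues in the enzyme levels was not tested.

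**Figure D5:**
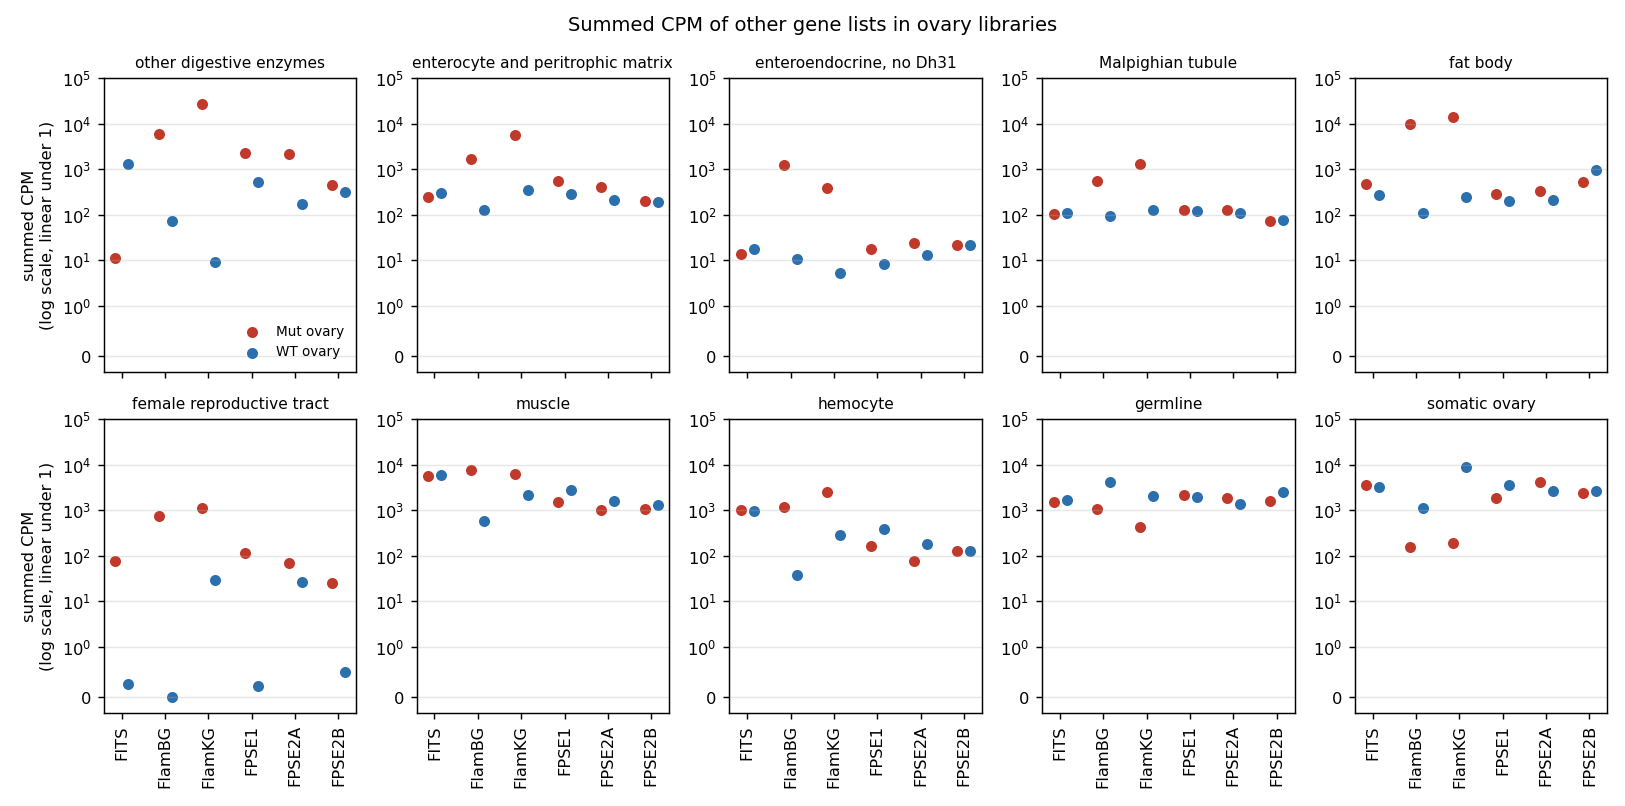
Summed CPM of 10 other gene lists (log scale, linear under 1 CPM) in the Mut and WT library of each line. Other digestive enzymes follow the pattern of the 46 genes, including the reversal in FITS at 11.5 CPM in Mut and 1341 CPM in WT, while the fat body list is at 478 CPM in FITS Mut and 277 CPM in FITS WT, and germline and somatic ovary genes are lowest in FlamBG Mut or FlamKG Mut.

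Outside the 46 genes, the 12 whose log2(CPM + 1) was most like the log2 of the summed CPM plus 1 over the 12 ovary libraries were Pebp1, CG7542, Vha100-5, CG8773, CG3734, CG10912, Diedel3, CG31233, CG10592, CG42249, CG4363 and Muc68E. Pearson's r lay between 0.968 and 0.989, as a description with no test, since all genes share the same libraries and their scaling. Without FlamKG Mut and FlamBG Mut, the 2 libraries farthest from the median sum, r lay between 0.924 and 0.990 over 10 libraries. Pebp1 had 987 CPM in FlamKG Mut and 0.415 CPM in FITS Mut, against 0.194 CPM in FlamKG WT and 45.96 CPM in FITS WT. Vha100-5, a proton pump subunit, had 411 and 1.06 CPM in the same Mut libraries, against 1.44 and 17.2 CPM in WT. CG7542 and CG31233 belonged to the list of other digestive enzymes. Of the 42 members, 17 had r above 0.9 with the sum that contains them, against 1.30% of all genes, while Jon74E had 0.491, LysP 0.443 and Mal-A5 -0.476.

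In the chromatin data of OSS cells, few of these genes had a mark of an active start, and none had a TJ peak near it. No TJ peak lay within 500 bp of any of the 46 starts, against 6.05% of all genes. Each histone mark had 4 lists, 2 from untreated cells, 1 after siRNA against GFP and 1 after siRNA against TJ. H3K4me3 summits, a mark of active starts, lay within 500 bp of 0 or 1 of the 46 in these lists. The share of all genes was 30.4% to 33.6% in the untreated and siGFP lists and 15.3% in siTj. The 1 gene was LysB, in untreated list 2 and in siGFP. H3K9me3 summits, a mark of silent chromatin, lay there for 2 of the 46 (4.35%) in 1 untreated list, Mal-A7 and Mal-A8, against 3.48% of genes. In untreated list 2, siGFP and siTj they lay there for 0, against 1.81%, 3.52% and 0.855%. Within 2000 bp they lay at 6.52% to 15.2% of the 46, against 3.02% to 9.90% of all genes. Mal-A5, the member with the highest level in OSS cells, had no H3K4me3 summit within 2000 bp of its start in any of those lists. The lists give the authors' summits, and a missing summit says only that none was listed there.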

How the data were processed

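Long RNA libraries were made from total RNA with a ribosomal RNA depletion kit, per the labels' protocols. The authors deposited 1 table per library with raw counts of reads per gene, unique or over all positions and by strand, per the file headers. The submitters' processing notes name Bowtie2, DESeq2, FastQC and MACS2 without roles, while the settings of the aligner are not given in the sources used here. Also deposited by the authors were chromatin summits with a score per summit, whose scale differs between lists. TJ peaks were deposited as positions alone, and gene lengths are in bases per the file headers.

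Members were taken by symbol, and 44 of 46 had the same bounds as in RefSeq Release 6. Unique sense counts over the whole locus were used. Reads spanning several exon parts are counted in each part, so part sums can exceed a locus count. CPM divided counts by library size times TMM factor. Tests used edgeR 4.0.16 (limma 3.58.1, R 4.3.3): TMM, filterByExpr by genotype, the quasi-likelihood F test, and Benjamini-Hochberg adjustment over all genes tested, with a threshold of 0.05. The line was a block, since the labels give each line 1 Mut and 1 WT library. Deviations from the group means correlated within a line with r of 0.394 for FPSE1, 0.357 for FPSE2B, 0.23 for FPSE2A, 0.212 for FITS, -0.00482 for FlamBG and -0.0506 for FlamKG. Alternatives were DESeq2 1.42.0 and its size factors, no low-count filter, all-position reads, no block and leaving out each replicate. The edgeR tests were tested on simulated data. Descriptions used Python 3.11.15, numpy 2.4.6, pandas 2.3.3 and matplotlib 3.10.9.

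Named were every member of families of 5 or fewer and the 6 highest of larger families. Members past the threshold in any main edgeR test and the 12 most like genes were also named. Of the 2 highest genes of each other list, only some were named. All further genes were named after their values were seen. Members and lists were chosen with earlier results of these data known. The share of reads taken by the 46 genes had a 95% Wilson interval of 4.84% to 4.85% in FlamKG Mut and 0.0271% to 0.0279% in FlamKG WT. Intervals and floors of 3 reads cover counting error only. Sequences of promoters and proteins are not analysed here.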

Additional observations from a re-analysis of the deposited data

Results flagged for a closer look

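Among groups of 6 ovary libraries, the highest library stood farther from its nearest neighbour than Dixon's 95% critical value for 39 of 80 groups of values. Chance flags about 1 in 20 only where values are normally distributed. The values here were CPM without a log and strongly skewed, so that rate does not hold and the flags are descriptions. The groups are not independent, since the same libraries enter each. FlamKG Mut was the library in 29 of them.

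In FlamKG Mut the summed level of all members was 63887 CPM, of Jonah proteases 18623 CPM, of trypsins 18792 CPM, of Mal-A maltases 13010.5 CPM, of amylases 3106 CPM, of lysozymes 4095 CPM and of Bace 6060.0 CPM. Among its proteases, Jon65Aiii had 3191 CPM, Jon65Aiv 4649 CPM, Jon99Cii 559.9 CPM, Jon99Ciii 3752 CPM, alphaTry 6416 CPM, betaTry 9795 CPM, epsilonTry 1416 CPM, lambdaTry 296 CPM and thetaTry 352 CPM. Among its carbohydrate enzymes, Mal-A1 had 5577 CPM, Mal-A4 1001 CPM, Mal-A6 2866 CPM, Mal-A7 1605 CPM, Mal-A8 935 CPM, Mal-B1 89.0 CPM, Amy-d 1694 CPM and Amy-p 1412 CPM. Among its lysozymes, LysB had 738 CPM, LysD 3026 CPM, LysS 7.73 CPM and LysX 96.8 CPM.

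FITS WT was the outlying WT library for Jon25Bi with 207 CPM, Jon25Bii with 194 CPM, Jon99Cii with 24.2 CPM, Jon99Ciii with 79.2 CPM, betaTry with 443 CPM and the Mal-A sum with 528 CPM. FlamBG Mut stood apart for Jon25Bii with 839 CPM and for LysP with 79.3 CPM. FPSE2A WT stood apart for Mal-B1 with 25.4 CPM, and FPSE2B WT for lambdaTry with 4.62 CPM.

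The log2 ratio of Mut to WT for the summed level was -3.42 in FITS, while the other 5 lines had positive ratios, the lowest in FPSE2B with a log2 ratio of 1.01. With 1 library of each genotype per line, this difference was not tested.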

How the results depend on the processing

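For Mut against WT, edgeR called 0 members and 0 genes in every setting run, and DESeq2 called 13 members and 329 genes; the cause was not tested. The pairing by line changed no call, since without the block 0 members and 0 genes were called. At an unadjusted p under 0.05 there were then 36 of 42 members and 1795 genes (16.1%). For the difference between lines, DESeq2 called 3 members and 4255 genes, all-position reads gave 15 genes, and leaving out each line gave 0 to 0 genes, against 8. For WT ovaries against siGFP cells, leaving out each library gave 19 to 27 members called of 29 to 42 tested, with 3862 to 5074 genes called (30.5% to 43.1%), against 25 of 33 members and 5097 genes (43.4%). No paired analysis was possible for that comparison because its groups share no animals or cultures.

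Without Mal-A5 and Mal-B2 the siGFP mean of the summed level was 67.5 CPM, against 251 CPM, a choice made after seeing the data. Without Dh31, also chosen after seeing the data, the log2 ratio of the enteroendocrine list in FPSE2B was -0.0052, against 1.23. Within 1000 bp of starts, H3K4me3 summits lay at 2 members in untreated list 1, 3 in untreated list 2 and 3 in siGFP, against 36.0% to 38.8% of all genes. H3K9me3 summits lay at 3 in untreated list 1, 1 in untreated list 2 and 2 in siGFP, against 5.97%, 3.34% and 5.73%. Within 2000 bp the H3K4me3 counts were 3, 4 and 4 in the same lists and 1 in siTj, against 25.4% to 44.04% of all genes. The H3K9me3 counts there were 5, 4 and 7, and 3 in siTj, or 10.9%, 8.70%, 15.2% and 6.52% of the 46, against 9.90%, 5.99%, 9.18% and 3.02% of all genes. With summits at or above the median score, H3K4me3 counts within 500 bp were 0 in each list. The shares of all genes were 22.1% and 19.6% in untreated lists 1 and 2, 21.0% in siGFP and 8.74% in siTj. H3K9me3 counts at that score were 2 (4.35%) in untreated list 1, against 1.55% of all genes. They were 0 in untreated list 2, siGFP and siTj, against 0.733%, 1.45% and 0.367%. Of the values for single members, lines and that list, 686 kept direction and side of the threshold, 35 moved, 11 gained and 13 lost the call, and 1, the enteroendocrine ratio above, reversed.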
